A study of Mus musculus with 10 samples.

Results

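The 9 chemokine receptor genes Ccr1, Ccr2, Ccr7, Ccr9, Cxcr2, Cxcr3, Cxcr4, Cxcr5 and Cx3cr1 were followed across 4 populations of blood cell progenitors sorted from mouse bone marrow. They were taken by gene symbol from a list of receptors through which progenitors and leukocytes are steered, and all 9 were found among 23152 genes, on 40 of the 233753 probe sets that carry a single gene symbol. The study hybridised total RNA of sorted cells to Affymetrix arrays, and 10 arrays were analysed. All cells came from the bone marrow of adult C57BL/6 mice, with no treatment or mutant allele in the labels, and all were negative for lineage markers and high for the cytokine receptor Flt3. The Ly6D+ common lymphoid progenitors (CLPs, 2 arrays) were low for cKit and Sca-1, positive for CD127, the IL-7 receptor alpha chain, and positive for the surface protein Ly6D. The Ly6D- CLPs (2 arrays) had the same gate without Ly6D. The CD127+ lymphoid-primed multipotent progenitors (LMPPs, 3 arrays) were high for cKit and Sca-1 and positive for CD127, and the CD127- LMPPs (3 arrays) had the same gate without CD127. The LMPPs were not sorted on Ly6D.

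Chemokine receptors are G protein-coupled receptors that let a cell move along a gradient of a small secreted protein, a chemokine. In the bone marrow, CXCR4 and its ligand CXCL12 are known for holding progenitors in their niche. CCR7 and CCR9 are known for the entry of lymphoid progenitors into the thymus, CXCR5 for the placing of B cells in follicles, and CCR2, CX3CR1 and CXCR2 for the traffic of monocytes and neutrophils.

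A gene value is the mean of the log2 values of the probe sets of that gene, so levels of different genes are not set against each other. Replicate arrays of a group correlated at 0.972 to 0.986 over all genes. The labels do not say whether replicates came from separate mice or sorts, so a p-value measures only the spread between these arrays, and they give no run date, so the run of an array and its cell type cannot be told apart. The 1422 olfactory, vomeronasal and taste receptor genes on the array, which blood cells are not known for, had a median of 2.55, and 95% of their values lay under 4.54. That value serves as the low-signal limit. Of the genes behind the sort, Il7r, Ly6d and Kit followed the labels and Ly6a, a Sca-1 gene, did not. Il7r was at 9.64 ± 0.03 (SD, n = 2) in Ly6D+ CLPs, 9.31 ± 0.05 (n = 2) in Ly6D- CLPs, 9.10 ± 0.05 (n = 3) in CD127+ LMPPs and 4.32 ± 0.44 (n = 3) in CD127- LMPPs. Ly6d was at 11.33 ± 0.04 (SD, n = 2) in Ly6D+ CLPs against 5.88 ± 0.41 (n = 2) in Ly6D- CLPs, and at 8.67 ± 0.14 (n = 3) in CD127+ LMPPs against 4.76 ± 0.15 (n = 3) in CD127- LMPPs. Ly6a averaged 6.30 ± 0.67 (SD, n = 2) in Ly6D+ CLPs, 5.51 ± 0.67 (n = 2) in Ly6D- CLPs, 7.02 ± 0.59 (n = 3) in CD127+ LMPPs and 5.82 ± 0.18 (n = 3) in CD127- LMPPs. Its mean in CD127- LMPPs, sorted as Sca-1 high, was below that in Ly6D+ CLPs, sorted as Sca-1 low, and its F test did not pass.

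Among the 9 receptors, Ccr2 was lower and Cxcr5 higher in each of the 3 CD127+ populations than in CD127- LMPPs, and Cx3cr1 was lower in CD127+ LMPPs. The moderated F test of limma over the 4 groups, with Benjamini-Hochberg adjustment over all genes and a threshold of 0.05, called 3 of 9 receptors, where it called 9.38% of all genes. These were Ccr2 (adjusted p = 0.000677), Cxcr5 (adjusted p = 0.000751) and Cx3cr1 (adjusted p = 0.0374). The F call of Cx3cr1 was lost in 9 of 16 alternative settings, 7 of them leaving out 1 array: replicate 1 or 2 of the CD127- LMPPs, replicate 1 or 3 of the CD127+ LMPPs, replicate 1 of the Ly6D- CLPs or either replicate of the Ly6D+ CLPs, with adjusted p up to 0.125. Ccr9 missed the threshold at an adjusted p of 0.0531 and passed it in 6 of 16. In bulk RNA, fewer cells with a transcript and less of it per cell cannot be told apart.

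**Figure D1:**
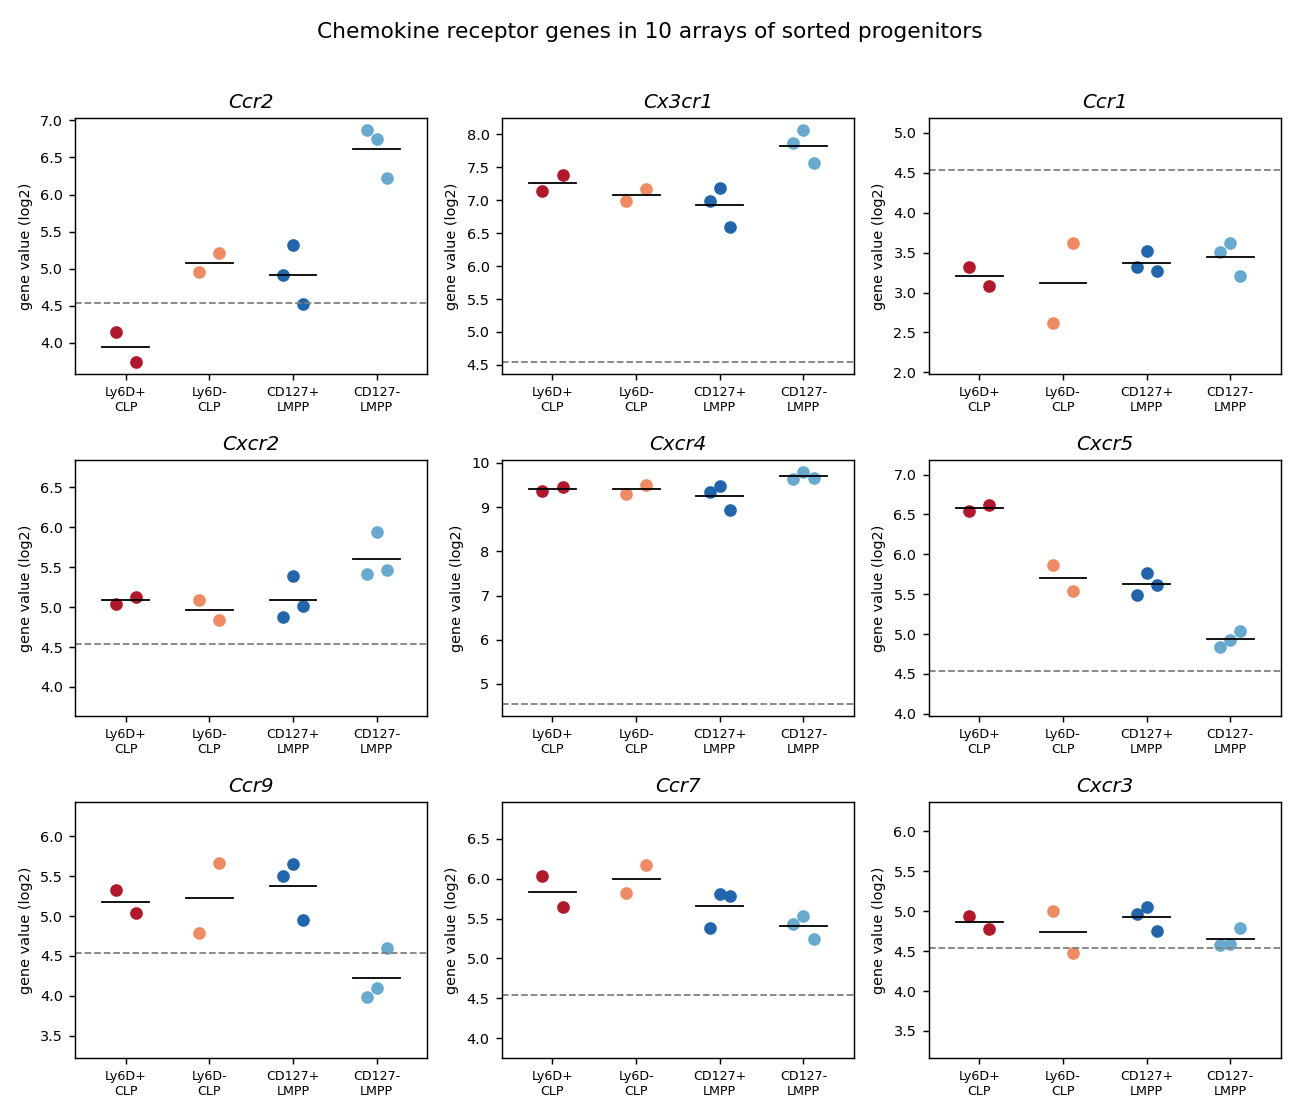
Each point is 1 array (gene value, log2), black bars are group means, columns are the 4 sorted groups and the dashed line is the low-signal limit of 4.54. The panels span different ranges, with Ccr2 lowest and Cxcr5 highest in Ly6D+ CLPs, Ccr9 lowest in CD127- LMPPs, and all 10 Ccr1 values under the limit.

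Ccr2 encodes the receptor for CCL2, through which inflammatory monocytes leave the bone marrow. Its gene values were 4.15 and 3.74 in Ly6D+ CLPs, 4.95 and 5.22 in Ly6D- CLPs, 4.92, 5.32 and 4.53 in CD127+ LMPPs, and 6.87, 6.75 and 6.22 in CD127- LMPPs. All 3 arrays of CD127- LMPPs stood above the other 7, both arrays of Ly6D+ CLPs stood below the other 8 and under the low-signal limit, and the Ly6D- CLPs and CD127+ LMPPs overlapped. CD127+ LMPPs were 3.23-fold lower than CD127- LMPPs, a log2 difference of -1.69 (standard error 0.23, 95% interval -2.20 to -1.18, limma adjusted p = 0.00408). Ly6D- CLPs were 2.89-fold lower than CD127- LMPPs (log2 difference -1.53, interval -2.10 to -0.96, limma adjusted p = 0.00649). Ly6D+ CLPs were at least 4.21-fold lower than CD127- LMPPs, with the Ly6D+ mean set at the low-signal limit, and the measured log2 difference was -2.67 (standard error 0.26, interval -3.24 to -2.10, limma adjusted p = 0.000147). The Ly6D+ CLPs had non-overlapping, lower values than CD127+ LMPPs (log2 difference -0.98, interval -1.55 to -0.41) and than Ly6D- CLPs (log2 difference -1.14, interval -1.77 to -0.51), but neither difference passed the threshold over all genes, with limma adjusted p = 0.0621 against CD127+ LMPPs and 0.233 against Ly6D- CLPs. The difference from CD127+ LMPPs passed in 3 of 16 alternative settings, with adjusted p between 0.0210 and 0.326 over all of them. Between Ly6D- CLPs and CD127+ LMPPs the log2 difference was 0.16, with an interval of -0.41 to 0.73. The call between CD127+ and CD127- LMPPs was lost with the median of the probe sets in place of their mean (limma adjusted p = 0.0667), and that between Ly6D- CLPs and CD127- LMPPs without replicate 1 of the Ly6D- CLPs (limma adjusted p = 0.0513).

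Cx3cr1 encodes the receptor for fractalkine, CX3CL1, and is known in the bone marrow for marking monocyte and macrophage precursors. Its gene values were 7.14 and 7.39 in Ly6D+ CLPs, 6.99 and 7.17 in Ly6D- CLPs, 6.99, 7.18 and 6.59 in CD127+ LMPPs, and 7.86, 8.07 and 7.57 in CD127- LMPPs. All 10 values lay above the low-signal limit, the 3 arrays of CD127- LMPPs above the other 7, and the other 3 groups overlapped. CD127+ LMPPs were 1.88-fold lower than CD127- LMPPs (log2 difference -0.91, standard error 0.19, interval -1.32 to -0.50, limma adjusted p = 0.0375). The differences of Ly6D- CLPs (log2 -0.75, interval -1.21 to -0.29, limma adjusted p = 0.0547) and of Ly6D+ CLPs (log2 -0.57, interval -1.02 to -0.11, limma adjusted p = 0.114) from CD127- LMPPs had intervals below 0 and did not pass. In alternative settings the Ly6D- CLP difference passed in 6 of 16 and the Ly6D+ CLP difference in 3 of 16, both among them with dim genes left out, with a trended, robust prior and with the replicate number as a block. Unlike the arrays of Ccr2, those of Cx3cr1 were not lower in Ly6D+ CLPs than in the Ly6D- CLPs (log2 difference 0.18, interval -0.32 to 0.68). The call between the LMPP groups was lost in 8 of 16 alternative settings, among them leaving out replicate 1 or 2 of the CD127- LMPPs, replicate 1 or 3 of the CD127+ LMPPs, or either replicate of the Ly6D+ CLPs, with limma adjusted p between 0.00326 and 0.147 over all 16.

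Ccr2, Cx3cr1 and Ccr9 all lie on mouse chromosome 9, as do Ccr1 and Cxcr5. For 7 of the 9 genes RefSeq promoter sequence was at hand, and the 200 bases before the annotated start of Ccr2 and Cx3cr1, both lower in CD127+ than in CD127- LMPPs, are shown beside those of Ccr9, whose measured values lay the other way. Capitals mark E-boxes, CANNTG, the letters bound by basic helix-loop-helix proteins such as E2A. The pattern CANNTG, though not each marked stretch, reads the same on both strands.
Ccr2, GRCm38.p6, chr9:124101983-124102182, plus strand: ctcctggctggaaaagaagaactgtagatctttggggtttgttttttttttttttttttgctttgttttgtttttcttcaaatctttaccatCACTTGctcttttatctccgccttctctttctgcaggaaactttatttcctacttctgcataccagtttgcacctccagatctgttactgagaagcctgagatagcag
Cx3cr1, GRCm38.p6, chr9:120068297-120068496, minus strand: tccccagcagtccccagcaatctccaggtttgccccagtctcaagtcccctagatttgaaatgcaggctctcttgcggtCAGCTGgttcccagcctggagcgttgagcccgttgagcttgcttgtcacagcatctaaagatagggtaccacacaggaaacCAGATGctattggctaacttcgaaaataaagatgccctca
Ccr9, GRCm38.p6, chr9:123767011-123767210, plus strand: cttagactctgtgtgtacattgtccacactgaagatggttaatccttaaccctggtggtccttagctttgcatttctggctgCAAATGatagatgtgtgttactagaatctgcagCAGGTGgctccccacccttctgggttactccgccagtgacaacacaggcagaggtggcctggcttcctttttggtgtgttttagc
The Ccr2 window holds 1 E-box and the Cx3cr1 and Ccr9 windows hold 2 each, while 58.2% of 32851 promoter windows of the same length hold at least 1. The letters GAGGAA, the core bound by PU.1, were searched on both strands and are in none of the 3 windows, against 19.0% of all promoter windows. The letters TGTGGT, a Runx core, are in the Cx3cr1 window alone of the 3, read on its opposite strand, against 11.2% of all windows. No E-box in these windows overlaps a PU.1 or Runx core. A match is a description of letters and not a binding site.

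Cxcr2 and Ccr1 complete the receptors known from myeloid cells. Cxcr2, the receptor for CXCL1 and CXCL2 on neutrophils, had gene values of 5.04 and 5.13 in Ly6D+ CLPs, 5.09 and 4.83 in Ly6D- CLPs, 4.87, 5.39 and 5.01 in CD127+ LMPPs, and 5.41, 5.94 and 5.47 in CD127- LMPPs. The lowest CD127- LMPP array stood just above the highest CD127+ LMPP array. No Cxcr2 difference passed; those from CD127- LMPPs were -0.52 in Ly6D+ CLPs (interval -0.98 to -0.07, limma adjusted p = 0.142), -0.64 in Ly6D- CLPs (interval -1.10 to -0.19, limma adjusted p = 0.0907) and -0.51 in CD127+ LMPPs (interval -0.92 to -0.11, limma adjusted p = 0.297), on the log2 scale. In alternative settings the Cxcr2 difference of Ly6D- CLPs from CD127- LMPPs passed in 1 of 16 (limma adjusted p = 0.0350). Ccr1, a receptor for CCL3, CCL5 and, in the mouse, CCL9, was under the low-signal limit on all 10 arrays, with values between 2.62 and 3.62, so its levels could not be ordered.

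Cxcr5 encodes the receptor for CXCL13, known on mature B cells and follicular helper T cells. Its gene values were 6.55 and 6.61 in Ly6D+ CLPs, 5.86 and 5.54 in Ly6D- CLPs, 5.49, 5.77 and 5.61 in CD127+ LMPPs, and 4.84, 4.92 and 5.04 in CD127- LMPPs. The 2 arrays of Ly6D+ CLPs stood above the other 8 and the 3 of CD127- LMPPs below the other 7, with overlap between Ly6D- CLPs and CD127+ LMPPs. Ly6D+ CLPs were 3.13-fold higher than CD127- LMPPs (log2 difference 1.64, standard error 0.16, interval 1.30 to 1.99, limma adjusted p = 0.000139). They were also 1.94-fold higher than CD127+ LMPPs (log2 difference 0.96, interval 0.61 to 1.30, limma adjusted p = 0.00817). Ly6D- CLPs were 1.70-fold higher than CD127- LMPPs (log2 difference 0.77, interval 0.42 to 1.11, limma adjusted p = 0.0158), and CD127+ LMPPs were 1.61-fold higher than CD127- LMPPs (log2 difference 0.69, interval 0.38 to 1.00, limma adjusted p = 0.0380). The Ly6D+ CLP values were higher than the Ly6D- CLP values without overlap (log2 difference 0.88, interval 0.50 to 1.26) and did not pass over all genes (limma adjusted p = 0.121), though it did with dim genes left out (0.0322).

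The calls for Cxcr5 differed in how they held. That between Ly6D+ CLPs and CD127- LMPPs held in all 16 alternative settings, as did that of Ccr2. The call between the LMPP groups was lost in 11 of 16, among them leaving out any 1 of the 6 LMPP arrays or either Ly6D+ CLP array, with limma adjusted p between 0.00902 and 0.392 over the settings. The call between Ly6D+ CLPs and CD127+ LMPPs was lost without either Ly6D+ CLP array (limma adjusted p = 0.0640 without replicate 1 and 0.0803 without replicate 2) and with the brightest probe set alone (0.421). The call between Ly6D- CLPs and CD127- LMPPs was lost without replicate 1 of the Ly6D- CLPs (limma adjusted p = 0.105) or of the CD127- LMPPs (0.0601), and with the brightest probe set alone, where the log2 difference was 0.06.

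**Figure D2:**
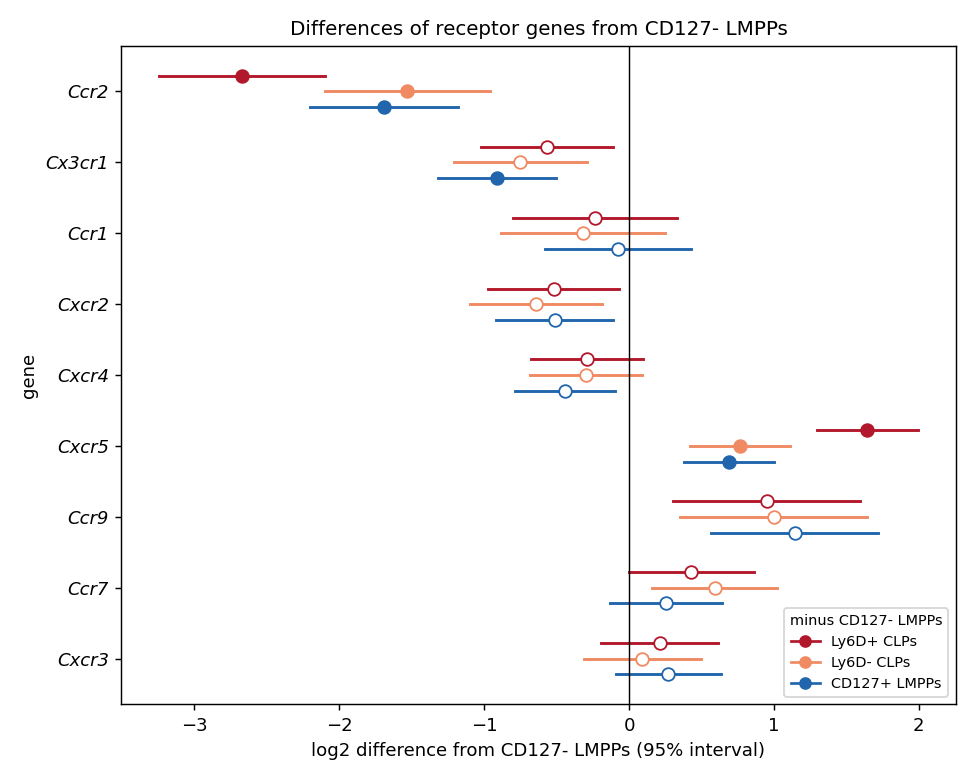
Points are log2 differences of each group from CD127- LMPPs and bars are 95% intervals of limma; filled points passed an adjusted p of 0.05 over all genes. The Ccr2 points lie between -2.67 and -1.53 and the Cxcr5 points between 0.69 and 1.64, and all 3 of each gene are filled.

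Ccr9 encodes the receptor for CCL25, a chemokine made by thymic epithelium. Its gene values were 5.32 and 5.04 in Ly6D+ CLPs, 4.79 and 5.67 in Ly6D- CLPs, 5.51, 5.66 and 4.95 in CD127+ LMPPs, and 3.98, 4.10 and 4.60 in CD127- LMPPs. The 3 CD127- LMPP arrays were the lowest, 2 of them under the low-signal limit, and the other 3 groups overlapped. With the CD127- LMPP mean set at the limit, the values were at least 1.56-fold higher in Ly6D+ CLPs, at least 1.61-fold in Ly6D- CLPs and at least 1.78-fold in CD127+ LMPPs. None of the 3 passed over all genes, with limma adjusted p = 0.0640 for Ly6D+ CLPs, 0.0680 for Ly6D- CLPs and 0.0679 for CD127+ LMPPs. With the median of the 6 Ccr9 probe sets in place of their mean, all 3 passed (limma adjusted p = 0.00416, 0.00847 and 0.0144, in the same order), and so they did with genes under the low-signal limit left out and with a trended, robust prior. With the brightest probe set alone, all 3 differences kept their direction but were smaller than with the mean, and none passed. Its log2 difference from CD127- LMPPs was 0.85 in Ly6D+ CLPs, 0.62 in Ly6D- CLPs and 0.32 in CD127+ LMPPs (limma adjusted p = 0.262, 0.439 and 0.914).

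Ccr7 encodes the receptor for CCL19 and CCL21, known for entry into lymph nodes and thymus. Its gene values were 6.03 and 5.64 in Ly6D+ CLPs, 5.82 and 6.17 in Ly6D- CLPs, 5.38, 5.81 and 5.79 in CD127+ LMPPs, and 5.44, 5.53 and 5.25 in CD127- LMPPs. Both CLP groups stood above CD127- LMPPs without overlap, and the CD127+ LMPPs overlapped the CD127- LMPPs and the Ly6D+ CLPs. The log2 differences from CD127- LMPPs were 0.43 in Ly6D+ CLPs (interval 0.00 to 0.86), 0.59 in Ly6D- CLPs (interval 0.16 to 1.02, limma adjusted p = 0.102) and 0.25 in CD127+ LMPPs (interval -0.13 to 0.64), and none passed. That of Ly6D- CLPs passed in 1 of 16 alternative settings (limma adjusted p = 0.0395).

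Cxcr4, the receptor for CXCL12, had gene values of 9.36 and 9.45 in Ly6D+ CLPs, 9.30 and 9.50 in Ly6D- CLPs, 9.33, 9.48 and 8.94 in CD127+ LMPPs, and 9.64, 9.79 and 9.65 in CD127- LMPPs. The 3 CD127- LMPP arrays were the highest, by a log2 difference of at most 0.44 between group means, and no comparison passed. The 95% intervals of the differences from CD127- LMPPs reached from -0.68 to 0.10 in Ly6D+ CLPs, from -0.68 to 0.09 in Ly6D- CLPs and from -0.79 to -0.10 in CD127+ LMPPs. Cxcr3, the receptor for CXCL9 and CXCL10 on effector T cells and NK cells, lay near the low-signal limit, with values of 4.94 and 4.78 in Ly6D+ CLPs, 5.01 and 4.48 in Ly6D- CLPs, 4.96, 5.05 and 4.75 in CD127+ LMPPs, and 4.57, 4.59 and 4.79 in CD127- LMPPs. All 4 groups of Cxcr3 overlapped and no difference passed.

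Comparison by comparison, limma called 2 of 9 receptors between Ly6D+ CLPs and CD127- LMPPs (Cxcr5 higher, Ccr2 lower), where 10.9% of all genes were called. It called the same 2 genes in the same directions between Ly6D- CLPs and CD127- LMPPs, where 7.1% of all genes were called. Between CD127+ and CD127- LMPPs it called 3 of 9 (Cxcr5 higher, Ccr2 and Cx3cr1 lower), against 1.47% of all genes. These 3 comparisons share the CD127- LMPP arrays. Between Ly6D+ CLPs and CD127+ LMPPs 1 of 9 was called, Cxcr5, against 4.03% of all genes. Between Ly6D- CLPs and CD127+ LMPPs limma called 0 of 9, against 2.06% of all genes, and 0 of 9 had an unadjusted p under 0.05. Between Ly6D+ and Ly6D- CLPs it called 0 of 9, against 0.0993% of all genes, with 2 of 9, Ccr2 and Cxcr5, at an unadjusted p under 0.05. A trended, robust prior called 0 of 9 in both of these comparisons as well. The 6 receptors other than Ccr2, Cxcr5 and Cx3cr1 gave 18 log2 differences among Ly6D+ CLPs, Ly6D- CLPs and CD127+ LMPPs, between -0.24 and 0.34, with 95% intervals reaching from -0.84 to 0.77.

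Non-overlapping groups were counted likewise. The 2 groups did not overlap for 7 of 9 receptors between Ly6D+ CLPs and CD127- LMPPs, against 42.5% of all genes, for 7 of 9 between Ly6D- CLPs and CD127- LMPPs, against 36.6%, and for 6 of 9 between CD127+ and CD127- LMPPs, against 17.7%. They did not overlap for 2 of 9 between Ly6D+ CLPs and CD127+ LMPPs (37.9% of all genes), for 1 of 9 between Ly6D- CLPs and CD127+ LMPPs (34.3%), and for 2 of 9 between Ly6D+ and Ly6D- CLPs (37.6%).

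Single probe sets show what the gene values average over. The low-signal limit was set on gene values and not on single probe sets. All 8 Ccr2 probe sets were lower in CD127+ than in CD127- LMPPs, by log2 differences of -2.90 to -0.07, and the 6 sets above the low-signal limit in some group averaged -1.92. Between Ly6D+ CLPs and CD127- LMPPs 7 of 8 sets were lower. Only 3 of the 8 were above the limit in Ly6D+ CLPs as well, and their log2 differences were -4.07, -3.68 and -3.67. All 4 Cxcr5 probe sets were higher in Ly6D+ CLPs than in CD127- LMPPs, by 0.96 to 3.13, and all 4 were higher in Ly6D+ than in Ly6D- CLPs, by 0.43 to 1.56. Between Ly6D- CLPs and CD127- LMPPs the Cxcr5 sets disagreed, from -0.30 to 2.50. All 3 Cx3cr1 sets were lower in CD127+ than in CD127- LMPPs, from -1.23 to -0.48, whereas between Ly6D+ CLPs and CD127- LMPPs 1 of 3 was higher, by 0.31. All 6 Ccr9 sets were higher in CD127+ than in CD127- LMPPs, by 0.32 to 1.55, and 5 of 6 were higher in Ly6D+ CLPs.

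**Figure D3:**
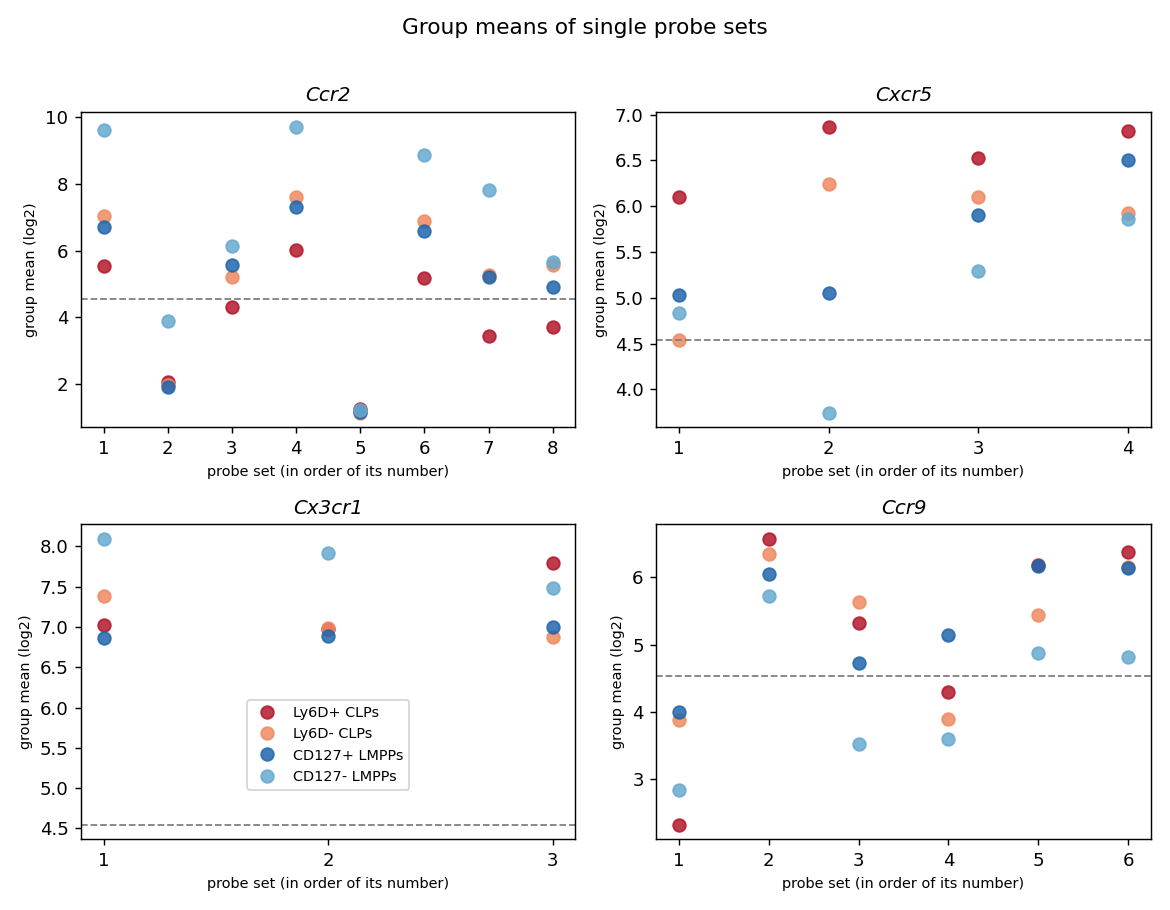
Each point is the mean of 1 probe set in 1 sorted group (log2), by probe set number, with the low-signal limit of 4.54 dashed; heights compare groups within a probe set only. Probe sets 2 and 5 of Ccr2 lie under the limit in all 4 groups, and the other 6 have CD127- LMPPs at the top.

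The genes with the most similar pattern were sought among 1860 annotated genes past the F test, by the mean absolute difference of deviations from each gene's own mean over the 10 arrays. For Ccr2 these were Il6ra, the IL-6 receptor alpha chain (0.21), Csf1r, the receptor for M-CSF (0.21), and Mpo, myeloperoxidase of primary granules (0.27), where the median over candidates was 0.74. For Cxcr5 they were Cd72, a B cell surface protein (0.15), Tpm2, a tropomyosin (0.16), and Ccdc135, now named Drc7 (0.16), with a median of 0.70. For Cx3cr1 they were Zeb2, a zinc finger transcription factor (0.12), Ifngr2, an interferon gamma receptor chain (0.13), and Grn, progranulin (0.14), with a median of 0.45. Csf1r averaged 5.58 in Ly6D+ CLPs, 6.28 in Ly6D- CLPs, 5.84 in CD127+ LMPPs and 7.73 in CD127- LMPPs. Cd72 averaged 7.89 in Ly6D+ CLPs, 7.46 in Ly6D- CLPs, 7.20 in CD127+ LMPPs and 6.51 in CD127- LMPPs.

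Markers of mature cells moved with some of these receptors. Of 8 measured monocyte and macrophage markers, 6 passed the F test, and their summed linear signal was 478 to 500 in Ly6D+ CLPs, 671 to 751 in Ly6D- CLPs, 869 to 932 in CD127+ LMPPs and 1991 to 3051 in CD127- LMPPs. That order has CD127- LMPPs highest, as for Ccr2 and Cx3cr1. F13a1, a monocyte transglutaminase, averaged 4.28 ± 0.53 (SD, n = 2) in Ly6D+ CLPs, 5.84 ± 0.01 (n = 2) in Ly6D- CLPs, 5.58 ± 0.13 (n = 3) in CD127+ LMPPs and 8.68 ± 0.53 (n = 3) in CD127- LMPPs, and 2 of the 8 markers were under the low-signal limit in CD127- LMPPs. The part of such cells in the Ccr2 and Cx3cr1 differences was not tested. Of 9 neutrophil markers 7 passed the F test, with a summed signal of 374 to 683 in Ly6D+ CLPs, 441 to 539 in Ly6D- CLPs, 2675 to 3994 in CD127+ LMPPs and 265 to 1004 in CD127- LMPPs. The 7 that passed had their highest mean in CD127+ LMPPs, whereas Mmp8, which did not pass, had its highest in CD127- LMPPs, at 5.22 ± 0.62 (SD, n = 3) against 4.59 ± 0.65 (n = 3) in CD127+ LMPPs. Cxcr2 too had its highest mean in CD127- LMPPs, and the part of such cells in its values was not tested. Of 6 B cell markers 1 passed, Cd79a, at 5.78 ± 0.31 (SD, n = 2) in Ly6D+ CLPs and under the low-signal limit on average in the other 3 groups, and the summed B cell signal was 214 in both Ly6D+ CLP arrays, 131 to 159 in Ly6D- CLPs, 153 to 176 in CD127+ LMPPs and 170 to 182 in CD127- LMPPs. Its part in the Cxcr5 difference was not tested. Of 7 T cell markers 1 passed the F test, Cd5, at 6.64 ± 0.03 (SD, n = 2) in Ly6D+ CLPs, 6.62 ± 0.49 (n = 2) in Ly6D- CLPs, 5.97 ± 0.25 (n = 3) in CD127+ LMPPs and 5.31 ± 0.26 (n = 3) in CD127- LMPPs, with its lowest mean in CD127- LMPPs as for Cxcr5. Cd5 was also the only 1 of the 7 T cell markers with any group mean at or above the low-signal limit. The limma F test called 0 of 5 NK cell markers. All 3 measured erythroid markers, Car1, Car2 and Rhag, passed it, each with its highest mean in CD127+ LMPPs. Their summed signal was 78 to 102 in Ly6D+ CLPs, 161 to 185 in Ly6D- CLPs, 514 to 911 in CD127+ LMPPs and 243.5 to 266.7 in CD127- LMPPs. The part of erythroid cells in the receptor differences was not tested.

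Dendritic cell markers moved with the called receptors in both directions. Of 6 measured, 4 passed the F test, and their summed linear signal was 956 to 1005 in Ly6D+ CLPs, 634 to 671 in Ly6D- CLPs, 640 to 790 in CD127+ LMPPs and 702 to 800 in CD127- LMPPs. Siglech, a lectin of plasmacytoid dendritic cells, averaged 8.92 ± 0.02 (SD, n = 2) in Ly6D+ CLPs, 7.71 ± 0.12 (n = 2) in Ly6D- CLPs, 6.49 ± 0.26 (n = 3) in CD127+ LMPPs and 5.59 ± 0.20 (n = 3) in CD127- LMPPs. Its group means, and those of the integrin gene Itgax, had the same order as those of Cxcr5. Clec9a, a lectin of conventional dendritic cells, averaged 4.72 ± 0.37 (SD, n = 2) in Ly6D+ CLPs, 5.17 ± 0.21 (n = 2) in Ly6D- CLPs, 4.17 ± 0.30 (n = 3) in CD127+ LMPPs and 6.34 ± 0.22 (n = 3) in CD127- LMPPs. It was highest in CD127- LMPPs, as were Ccr2 and Cx3cr1. Bst2 averaged 8.55 in Ly6D+ CLPs, 8.31 in Ly6D- CLPs, 9.02 in CD127+ LMPPs and 9.11 in CD127- LMPPs. Unlike Ccr2 and Cx3cr1, it was not called between the LMPP groups (limma adjusted p = 0.885). The part of dendritic and T cells in the receptor differences was not tested.

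Of the 15 other chemokine receptor genes measured, 10 stayed under the low-signal limit in all 4 group means and 1 passed the F test, beside 9.38% of all genes. That gene was Ccrl2, an atypical receptor that binds chemerin, at 7.40 ± 0.00 (SD, n = 2) in Ly6D+ CLPs, 7.42 ± 0.32 (n = 2) in Ly6D- CLPs, 7.42 ± 0.26 (n = 3) in CD127+ LMPPs and 6.63 ± 0.14 (n = 3) in CD127- LMPPs. It was higher than in CD127- LMPPs by 0.78 (log2) in Ly6D+ CLPs (limma adjusted p = 0.0265) and by 0.79 in Ly6D- CLPs (0.0335), and its F call was lost in 8 of 16 alternative settings.

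Among the chemokines themselves, Ccl9, Ccl3 and Ccl4 were lower in CLPs than in CD127- LMPPs and Xcl1 was higher. Of 34 measured ligand genes, 19 reached the low-signal limit in some group and 5 passed the F test, beside 9.38% of all genes: Ccl9, Ccl3, Ccl4, Xcl1 and Ccl22. Between Ly6D+ CLPs and CD127- LMPPs, 2 of 34 rose and 3 fell, with a median log2 difference of -0.09 over the 34 genes. Over all genes in that comparison 10.9% were called, 910 higher and 1607 lower, and the median was 0.02. Ccl9, a ligand of CCR1 in the mouse, had gene values of 5.93 and 5.37 in Ly6D+ CLPs, 6.60 and 6.42 in Ly6D- CLPs, 7.82, 7.55 and 7.35 in CD127+ LMPPs, and 9.48, 9.15 and 9.04 in CD127- LMPPs. The 4 groups did not overlap, and Ccl9 fell in each of the 5 comparisons other than that between the CLP groups, by -1.06 (Ly6D- CLPs minus CD127+ LMPPs, limma adjusted p = 0.0330) to -3.58 (Ly6D+ CLPs minus CD127- LMPPs, limma adjusted p = 4.88e-06) on the log2 scale. Ccr1, through which it acts, was under the low-signal limit throughout.

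Ccl3 and Ccl4, chemokines that draw in inflammatory cells, were lower in the CLPs. Ccl3 was at 9.88 and 9.68 in Ly6D+ CLPs, 10.75 and 10.64 in Ly6D- CLPs, 11.26, 11.11 and 11.05 in CD127+ LMPPs, and 11.55, 11.47 and 11.56 in CD127- LMPPs, and no group overlapped another. Its log2 difference from CD127- LMPPs was -1.75 in Ly6D+ CLPs (limma adjusted p = 4.65e-05) and -0.83 in Ly6D- CLPs (0.00670), and Ly6D+ CLPs differed from CD127+ LMPPs by -1.36 (0.000879). Ccl4 differed from CD127- LMPPs by -1.67 in Ly6D+ CLPs (limma adjusted p = 0.000335) and by -0.97 in Ly6D- CLPs (0.0113), and its F call was lost in 1 of 16 alternative settings. Xcl1, the ligand of the dendritic cell receptor XCR1, had the opposite direction, with 7.20 and 7.32 in Ly6D+ CLPs, 6.74 and 7.57 in Ly6D- CLPs, 7.78, 7.61 and 7.75 in CD127+ LMPPs, and 6.07, 5.83 and 6.13 in CD127- LMPPs. All 3 CD127- LMPP arrays were the lowest. Xcl1 was higher than in CD127- LMPPs by 1.25 in Ly6D+ CLPs (limma adjusted p = 0.00472), by 1.14 in Ly6D- CLPs (0.0114) and by 1.70 in CD127+ LMPPs (0.00138), on the log2 scale. Ccl22 was under the low-signal limit in all 4 group means. Cxcl12, the ligand of CXCR4 that marrow stroma makes, averaged 4.23 ± 0.01 (SD, n = 2) in Ly6D+ CLPs, 4.33 ± 0.38 (n = 2) in Ly6D- CLPs, 4.74 ± 0.22 (n = 3) in CD127+ LMPPs and 4.51 ± 0.37 (n = 3) in CD127- LMPPs, near the limit in all groups.

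**Figure D4:**
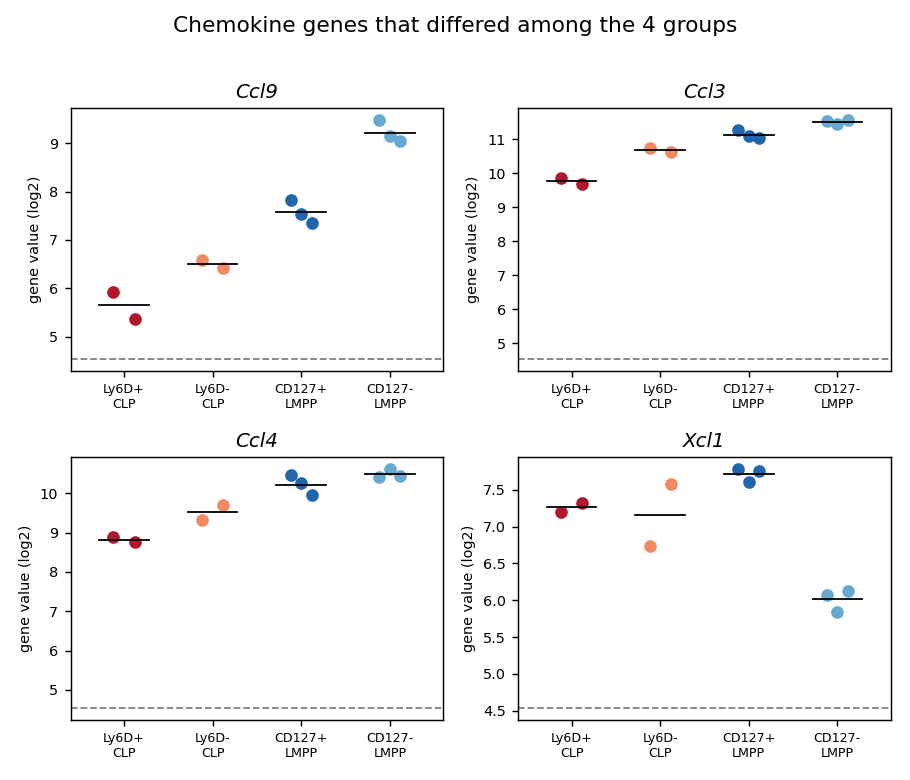
Each point is 1 array (gene value, log2), black bars are group means, columns are the 4 sorted groups and the dashed line is the low-signal limit of 4.54. Ccl9, Ccl3 and Ccl4 are lowest in Ly6D+ CLPs, and Xcl1 is lowest in CD127- LMPPs.

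Of 34 measured genes that carry the signal of chemokine receptors into the cell, 4 passed the F test, a share near the 9.38% of all genes, so the count does not set the list apart. The 4 had lower means in the CLPs than in the LMPPs: Rgs18 and Rgs10, which speed the shut-off of G proteins, Was, which links receptors to actin, and Coro1a, an actin-binding coronin. Between Ly6D+ CLPs and CD127- LMPPs 0 of 34 rose and 7 fell, with a median log2 difference of -0.24, beside 10.9% of all genes called (910 higher, 1607 lower) and a median of 0.02. By limma, 0 of 34 were called between CD127+ and CD127- LMPPs, beside 1.47% of all genes. Rgs18 averaged 7.63 ± 0.00 (SD, n = 2) in Ly6D+ CLPs, 7.93 ± 0.12 (n = 2) in Ly6D- CLPs, 8.54 ± 0.34 (n = 3) in CD127+ LMPPs and 8.66 ± 0.20 (n = 3) in CD127- LMPPs. The F calls of Was and Coro1a, close to the threshold, were lost in 10 or more of 16 alternative settings, that of Rgs10 in 6 and that of Rgs18 in 5.

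Of 17 measured adhesion genes used in homing, 5 passed the F test, beside 9.38% of all genes: Spn, Fut7, Itga4, Itgb7 and Itga6. Between Ly6D+ CLPs and CD127- LMPPs 1 of 17 rose and 7 fell, with a median log2 difference of -0.48, beside the same 10.9% of all genes called and median of 0.02. The gene that rose was S1pr1, by 0.63 (log2, limma adjusted p = 0.0306), and it was also higher than in CD127+ LMPPs, by 0.72 (0.0349). Its F test did not pass (adjusted p = 0.0560), and its mean in CD127- LMPPs, 4.49, lay under the low-signal limit. Spn, the sialomucin CD43, averaged 7.92 ± 0.08 (SD, n = 2) in Ly6D+ CLPs, 8.18 ± 0.01 (n = 2) in Ly6D- CLPs, 8.50 ± 0.16 (n = 3) in CD127+ LMPPs and 9.06 ± 0.16 (n = 3) in CD127- LMPPs, and its log2 difference from CD127- LMPPs was -1.14 in Ly6D+ CLPs (limma adjusted p = 0.00122). Itga4 and Itgb7 encode the chains of the integrin alpha4 beta7, which binds MAdCAM-1. Itga4 was higher in Ly6D- CLPs than in CD127- LMPPs by 0.79 (limma adjusted p = 0.0161). Itgb7 was lower in Ly6D+ CLPs than in CD127- LMPPs by a log2 difference of -0.75 (0.0102). Neither was called against CD127- LMPPs in the other CLP group. There the log2 difference was 0.52 for Itga4 in Ly6D+ CLPs (limma adjusted p = 0.0683) and -0.15 for Itgb7 in Ly6D- CLPs (0.638). The laminin receptor chain Itga6 was lower in Ly6D+ CLPs than in CD127- LMPPs, with a log2 difference of -0.68 (limma adjusted p = 0.0142), and so was Fut7, a fucosyltransferase that makes selectin ligands, whose mean in Ly6D+ CLPs, 4.31, lay under the low-signal limit. The F calls of these integrin genes and of Fut7 were lost in 8 or more of 16 alternative settings.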

How the data were processed

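Total RNA of sorted progenitors was extracted with Trizol, biotin-labelled and hybridised, 1 array per sample, per the labels' protocols. The values used are the authors' deposited log2 expression values per probe set, made with Affymetrix Power Tools per the submitters' processing notes; no version, summarisation method or genome build is given in the sources read. Distributions were alike across the arrays, with quartiles differing by at most 0.13. Of 269751 probe sets, 233753 had 1 gene symbol in the platform annotation, 5106 had several and 30892 had none. The gene value is the mean over the probe sets with that 1 symbol (median of 8 per gene). No count or depth exists for arrays, and their number limits the precision.

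The 6 pairwise comparisons and the F test were made with limma 3.58.1 in R 4.3.3 (lmFit and eBayes) over all 10 arrays, 4 groups and 23152 genes, with Benjamini-Hochberg adjustment; this step was tested on simulated data. The low-signal limit, 4.54, is the 95th percentile of 1422 sensory receptor genes, and a fold against a group mean under it is given against the limit. The named genes are the 9 receptors, up to 5 genes past the F test from each list, and the 3 genes of most similar pattern for each receptor past it. Cxcl12, F13a1, Cd79a, Cd79b, Cd5, S1pr1, Mmp8, Siglech, Itgax, Clec9a and Bst2 were named after their values were seen. The receptors and lists were chosen with earlier results of these data known. Alternatives were quantile normalization, a gene's median probe set or its brightest one, leaving out dim genes, a trended and robust prior, the replicate number as a block, a 2-fold threshold, and leaving out each array. Promoter letters came from RefSeq (GRCm38.p6), and figures were drawn with matplotlib 3.10.9.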

Additional observations from a re-analysis of the deposited data

How the results depend on the processing

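Over 36 differences of single receptors under 16 alternatives (15 where a gene was filtered out), 499 fits kept direction and side of the threshold, 30 gained a call, 27 lost one and 17 turned sign. The other 18 differences were never called, with a lowest adjusted p of 0.0860 in limma. Causes were not tested. The number of arrays and signals near the low-signal limit, as for Ccr1 and Cxcr3, bound what can be resolved.

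Between CD127+ and CD127- LMPPs, 3 receptors became 1 with the median probe set, 1 with the brightest and 1 with a 2-fold threshold, while 341 genes became 160, 88 and 169 with those settings, 529 with dim genes left out and 581 with a trended, robust prior. For Ly6D- CLPs against CD127+ LMPPs, 476 genes became 105 (median), 1374 (dim genes left out), 1398 (trended prior) and 167 (2-fold). For Ly6D+ CLPs against CD127+ LMPPs, 1 receptor became 0 with the brightest set and with a 2-fold threshold, and 2 with dim genes left out and with the trended prior, while 933 genes became 429 (median), 1988 (dim genes left out), 1954 (trended prior) and 321 (2-fold). Between Ly6D- CLPs and CD127- LMPPs, 2 receptors became 1 with the brightest set, 6 with dim genes left out, 4 with the trended prior and 1 with a 2-fold threshold, while 1643 genes became 824 (median), 1093 (brightest), 2538 (dim genes left out), 2551 (trended prior) and 518 (2-fold). Between Ly6D+ CLPs and CD127- LMPPs, 2 receptors became 4 with dim genes left out and 4 with the trended prior, while 2517 genes became 1364 (median) and 809 (2-fold). Between Ly6D+ and Ly6D- CLPs, 0 receptors became 1, Cxcr5, with dim genes left out, while 23 genes became 11 (median), 11 (brightest), 66 (dim genes left out) and 78 (trended prior). The F test's 2171 genes became 1042 (median), 3375 (dim genes left out) and 3516 (trended prior).

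The labels do not say whether same-numbered arrays were paired, and low correlations between them cannot settle it. Same-numbered LMPP arrays deviated together with correlations of -0.01 to 0.04. Same-numbered CLP arrays did so with 0.03, necessarily the same value for both replicates with 2 arrays per group. Between LMPP and CLP groups the correlations were -0.04 to 0.13, with 1 over 0.1, that of replicate 2 of the Ly6D- CLPs and the CD127- LMPPs. With the replicate number as a block, 2 receptors were called between Ly6D+ CLPs and CD127+ LMPPs in place of 1, and 553 genes in place of 933; 104 genes were called between Ly6D- CLPs and CD127+ LMPPs, 8 between the CLP groups and 1288 by the F test. Under this block the Cxcr5 call between the LMPP groups was lost (limma adjusted p = 0.0917). Calls were gained for Cx3cr1 in Ly6D+ CLPs (0.0198) and in Ly6D- CLPs (0.0135) against CD127- LMPPs, and for Ccr2 in Ly6D+ CLPs against CD127+ LMPPs (0.0276). The Ccr2 difference between Ly6D- CLPs and CD127+ LMPPs turned to -0.035.

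Leaving out 1 array at a time gave 1 to 4 called receptors between CD127+ and CD127- LMPPs, 0 between Ly6D- CLPs and CD127+ LMPPs, 0 to 1 between Ly6D+ CLPs and CD127+ LMPPs, 1 to 3 between Ly6D- CLPs and CD127- LMPPs, 2 to 3 between Ly6D+ CLPs and CD127- LMPPs, 0 between the CLP groups and 2 to 4 by the F test. Where this leaves 1 array in a CLP group, that array is assumed to vary like the other groups. In the same order, the called genes numbered 165 to 340, 76 to 438, 194 to 1016, 808 to 1448, 1001 to 2652, 6 to 27 and 1199 to 2028.

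The turned signs were all of differences that were not called. With the brightest probe set, log2 differences from CD127- LMPPs turned for Ccr1 (0.16 in Ly6D+ CLPs, 0.85 in Ly6D- CLPs, 0.30 in CD127+ LMPPs), Ccr7 (-0.70 in Ly6D- CLPs, -0.23 in CD127+ LMPPs), Cxcr2 (0.078 in Ly6D+ CLPs) and Cxcr3 (-0.17 in Ly6D+ CLPs, -0.88 in Ly6D- CLPs). So did Cxcr5 between Ly6D- CLPs and CD127+ LMPPs (-0.58) and Cx3cr1 between the CLP groups (-0.36). Leaving out 1 array at a time, differences from CD127- LMPPs spanned 0 for Ccr1 (-0.82 to 0.18 in Ly6D- CLPs, -0.19 to 0.011 in CD127+ LMPPs) and Cxcr3 (-0.17 to 0.36 in Ly6D- CLPs). Likewise Ly6D- CLPs minus CD127+ LMPPs spanned -0.035 to 0.36 for Ccr2, -0.085 to 0.24 for Cxcr5 and -0.0024 to 0.29 for Cx3cr1.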
